A study of Mus musculus with 6 samples.

Results

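Mitochondrial ribosomal protein genes were taken as the protein-coding genes whose symbols begin with Mrpl or Mrps and a digit. The rule found 78 genes among the 78317 gene rows of the table, 49 named for the large subunit (Mrpl) and 29 for the small subunit (Mrps). All 78 were expressed well enough to be tested. Messenger RNA was sequenced from MCEC, a mouse cardiac endothelial cell line, in 3 Fat4 knockdown libraries and 3 control libraries. The knockdown cells carried a short hairpin against Fat4 (ShFat4), a gene for a giant atypical cadherin, and the controls were the same line, labelled wild type. Both groups thus share 1 line and 1 species, and the sources used here do not give the number of hairpins or clones, or whether the controls carried a hairpin of their own. Separate cultures behind the 3 libraries of each group are not stated either, so the p-values refer to library-to-library spread, and that spread may be technical.

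The mitochondrial ribosome is the machine inside mitochondria that translates the few proteins still encoded by mitochondrial DNA. All of those proteins are core parts of the respiratory chain or of ATP synthase. Its ribosomal RNAs are transcribed in the mitochondrion, but its proteins are encoded in the nucleus, made in the cytosol and imported. Some of them descend from bacterial ribosomal proteins, and others were added in the mitochondrial lineage. Symbols do not follow position exactly: Mrps30 and Mrps18a belong to the large subunit in the assembled ribosome, and Mrps36 is now regarded as a component of the 2-oxoglutarate dehydrogenase complex.

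The nuclear genes of mitochondrial ribosomes lie scattered over the genome, here on 17 chromosomes, and are read from separate promoters. Known regulators of such promoters include NRF1 and the ETS factor GABP. RefSeq gave a promoter for 69 of the 78 genes (build GRCm38.p6), and the 250 bases before each start were searched on both strands. The NRF1 core was taken as GCGC, any base and then TGCGC. It was present for 10 of the 69 genes (14.5%), against 4.23% of all 27025 genes searched. Those 27025 include genes that were not tested here, so the comparison is not one among expressed genes alone. The ETS core CCGGAAG was present for 18 (26.1%), against 7.83% of all genes searched. The YY1 core AAGATGGC was found in 4 (5.8%, against 1.83%) and the E-box CACGTG in 5 (7.25%, against 6.86%). In all, 27 of the 69 genes had an NRF1 or an ETS core, and 1, Mrpl17, had both. These letters were searched as they stand. The E-box is shorter than the other motifs and palindromic, and in Mrps18c its match lies next to the ETS core without sharing a base.

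The promoters of 4 genes that were higher after Fat4 knockdown are printed, with motif matches in capitals, from 250 bases upstream to the base before the start. Mrpl1 had the largest fold change of the large subunit genes. Mrps21 and Mrps18c share the top of the small subunit with Mrps33. Mrpl17 was chosen after the search because it holds both cores.
Mrpl1 promoter: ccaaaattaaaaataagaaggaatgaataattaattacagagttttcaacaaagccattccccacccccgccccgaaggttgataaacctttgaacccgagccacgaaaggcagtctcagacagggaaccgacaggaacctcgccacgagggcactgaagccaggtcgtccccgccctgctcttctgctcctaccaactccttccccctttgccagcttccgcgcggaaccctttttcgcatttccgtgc
Mrps21 promoter: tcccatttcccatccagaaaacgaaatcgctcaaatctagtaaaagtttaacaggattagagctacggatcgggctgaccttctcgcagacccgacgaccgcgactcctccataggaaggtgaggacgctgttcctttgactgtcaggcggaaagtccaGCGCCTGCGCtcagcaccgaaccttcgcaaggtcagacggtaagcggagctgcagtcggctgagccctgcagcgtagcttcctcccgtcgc
Mrps18c promoter: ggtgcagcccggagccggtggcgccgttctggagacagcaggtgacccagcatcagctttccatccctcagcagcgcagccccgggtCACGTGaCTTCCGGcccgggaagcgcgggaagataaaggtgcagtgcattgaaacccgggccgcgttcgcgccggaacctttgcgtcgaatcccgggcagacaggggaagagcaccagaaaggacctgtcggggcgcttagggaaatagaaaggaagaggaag
Mrpl17 promoter: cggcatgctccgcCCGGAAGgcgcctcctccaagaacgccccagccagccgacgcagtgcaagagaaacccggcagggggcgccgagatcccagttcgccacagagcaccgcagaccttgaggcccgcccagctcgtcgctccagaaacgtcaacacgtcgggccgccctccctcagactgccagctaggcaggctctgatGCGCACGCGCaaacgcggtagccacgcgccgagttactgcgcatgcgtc
In GRCm38.p6 the windows are chr5:96209865-96210114 on the plus strand for Mrpl1, chr3:95871515-95871764 on the minus strand for Mrps21, chr5:100798509-100798758 on the plus strand for Mrps18c and chr7:105811088-105811337 on the minus strand for Mrpl17. The Mrps21 window holds an NRF1 core. The Mrps18c window holds an E-box and then an ETS core on the other strand. The Mrpl17 window holds an ETS core far upstream and an NRF1 core nearer the start. The Mrpl1 window held none of the 4 motifs. Neither did the windows of Mrpl11 and Mrps33, which also had some of the largest fold changes of their subunits and are not printed.

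Total estimated counts were between 10509069 and 11538010 in the knockdown libraries and between 10305810 and 11870091 in the control libraries. In libraries of this size a count of 3 corresponds to 0.253 to 0.291 CPM (counts scaled to library size), which covers counting error only, and member genes had 159 to 3040.5 counts in each library. Replicate libraries differed from each other by more than counting error in every pair. Fat4 itself (ENSMUSG00000046743) had 8.5, 10 and 9 estimated counts in knockdown libraries, against 10, 22 and 31.5 in control libraries. Its log2 fold change was -1.17 ± 0.35 (SE), with an edgeR adjusted p of 0.033. The groups overlapped on the CPM scale, at 0.714, 0.98 and 0.817 CPM in knockdown against 0.971, 1.94 and 2.6 CPM in control libraries. With 1 library left out, 5 of the 6 fits no longer called Fat4, and the edgeR adjusted p reached 0.205. The endothelial label was not borne out by the markers. Averaged over the 6 libraries, 9 of 12 endothelial markers were under 1 CPM, among them Pecam1, Cdh5 and Kdr. Of these 9, 5 had no count. All 7 mesothelial markers were above 1 CPM by the same average. Their summed levels were 831, 798 and 816 CPM in knockdown libraries against 991, 1006 and 1077 CPM in control libraries. Of these 7, 3 were called lower and 0 higher, beside 8.44% and 8.94% of all genes tested, and 2 had a log2 fold change above 0. The 4 fibroblast markers, Lum with no count, summed to 1545, 1550 and 1683 CPM in knockdown libraries against 2027, 1995 and 2085 CPM in control libraries. Most of this sum came from 1 marker, with a mean of 1740 CPM over all libraries. Of the 3 tested, 1 was called lower and 0 higher, and 1 had a log2 fold change above 0. Endothelial markers summed to 79.7, 76.1 and 80.8 CPM in knockdown libraries, against 83.8, 85.5 and 93.7 CPM in control libraries. The 2 leukocyte markers summed to 3.43 to 3.9 CPM in knockdown libraries and 3.18 to 3.98 CPM in control libraries. The 4 cardiomyocyte markers were all under 1 CPM by the same average. They summed to 1.25 to 1.37 CPM in knockdown libraries and 0.651 to 2.14 CPM in control libraries. The part of these shifts in the results below was not tested.

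Mitochondrial ribosomal protein genes were higher in Fat4 knockdown than in control cells, by small amounts and in both subunits. Of the 78 genes, 35 (44.9%) were called higher at a Benjamini-Hochberg adjusted p under 0.05 in edgeR's quasi-likelihood test over all 13372 genes tested, where 8.94% of all genes were called higher. None was called lower, against 8.44% of all genes. No gene of the 78 had an unadjusted edgeR p under 0.05 in the lower direction, against 2124 of all 13372 genes tested. DESeq2 and limma-voom each called 30 of the 78 higher (38.5%) and 0 lower. Over all genes DESeq2 called 6.81% higher and 4.67% lower, and limma-voom 8.8% and 7.88%. The change of the 35 called genes lay between 13% and 44.3%, with a median of 20.9%. The median log2 fold change was 0.19 over the 78 genes, against -0.01 over all genes tested, and 67 of the 78 were above 0. In bulk RNA, a change in the amount of RNA per cell cannot be told apart from a change in the mix of cells.

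The subunits lay close to each other, though the difference between them was not tested. In the large subunit 23 of 49 genes (46.9%) were called higher, with a median log2 fold change of 0.19 and a range of -0.14 to 0.53. In the small subunit 12 of 29 (41.4%) were called higher, with a median of 0.16 and a range of -0.08 to 0.41. Placing genes by their position in the ribosome, with Mrps30 and Mrps18a in the large subunit and Mrps36 left out, gave 23 of 51 and 12 of 26. Libraries of the groups did not overlap, with knockdown higher, for 28 large and 16 small subunit genes, 44 of 78, against 17.4% of all genes tested. The reverse held for 1 gene, Mrpl38, against 17.5% of all genes.

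**Figure D1:**
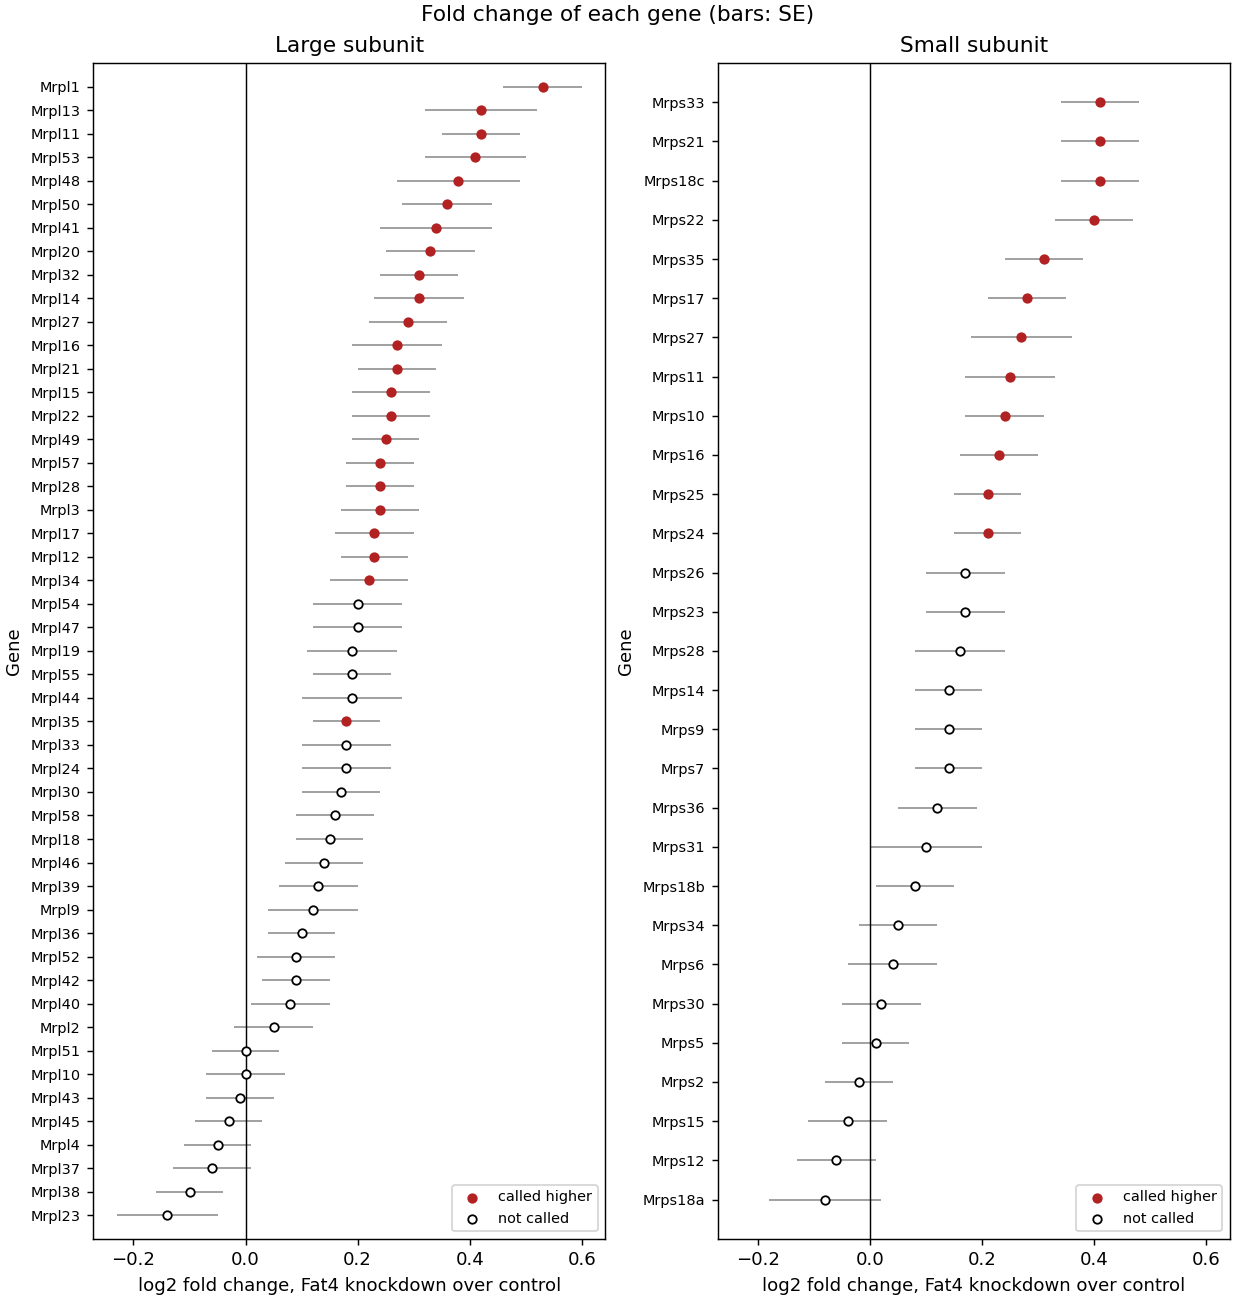
Log2 fold change of each mitochondrial ribosomal protein gene, Fat4 knockdown over control (x axis), with genes of the large subunit on the left and of the small subunit on the right. Points are edgeR estimates, bars 1 SE on each side, and filled points the 23 and 12 genes called higher; estimates run from -0.14 to 0.53.

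Summed over the large subunit genes, levels were 5482, 5343 and 5110 CPM in knockdown libraries, against 4895, 4615 and 4382 CPM in control libraries. The lowest knockdown library stood above the highest control library, and the means were 5311 ± 188 and 4631 ± 257 CPM in knockdown and control (SD, n = 3 each). The small subunit genes summed to 2654, 2552 and 2509 CPM in knockdown libraries, against 2394, 2215 and 2129 CPM in control libraries. Again the groups did not overlap, with means of 2572 ± 74.2 CPM in knockdown and 2246 ± 136 CPM in control cells (SD, n = 3 each). Together these genes made up less than 1% of counts in each library: the large subunit took 0.508% to 0.532% in knockdown and 0.454% to 0.489% in control libraries.

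The 6 libraries were not evenly spaced within their groups. The median log2 difference from the control mean over large subunit genes was 0.25, 0.21 and 0.15 in knockdown libraries 1, 2 and 3, against 0.09, 0.00 and -0.07 in control libraries 1, 2 and 3. For the small subunit it was 0.20, 0.11 and 0.14 in knockdown libraries, against 0.09, -0.01 and -0.08 in control libraries. Control library 1 was the highest control for 55 of the 78 genes, and control library 3 the lowest for 50. Leaving out 1 library moved the number of calls strongly, over all genes as well. Over all genes edgeR called 1216 without knockdown library 1, 1165 without knockdown library 2 and 1789 without knockdown library 3. It called 3077, 1029 and 1226 without control libraries 1, 2 and 3, against 2324 with all libraries. The large subunit had 7 called higher without knockdown library 1, 10 without knockdown library 2 and 8 without control library 2 or 3, against 31 without control library 1. The small subunit had 5 without any 1 of knockdown libraries 1 and 2 and control libraries 2 and 3, and 14 without control library 1. The medians moved less, between 0.16 and 0.25 in the large and between 0.12 and 0.19 in the small subunit, and no gene of either was called lower in any of these fits.

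**Figure D2:**
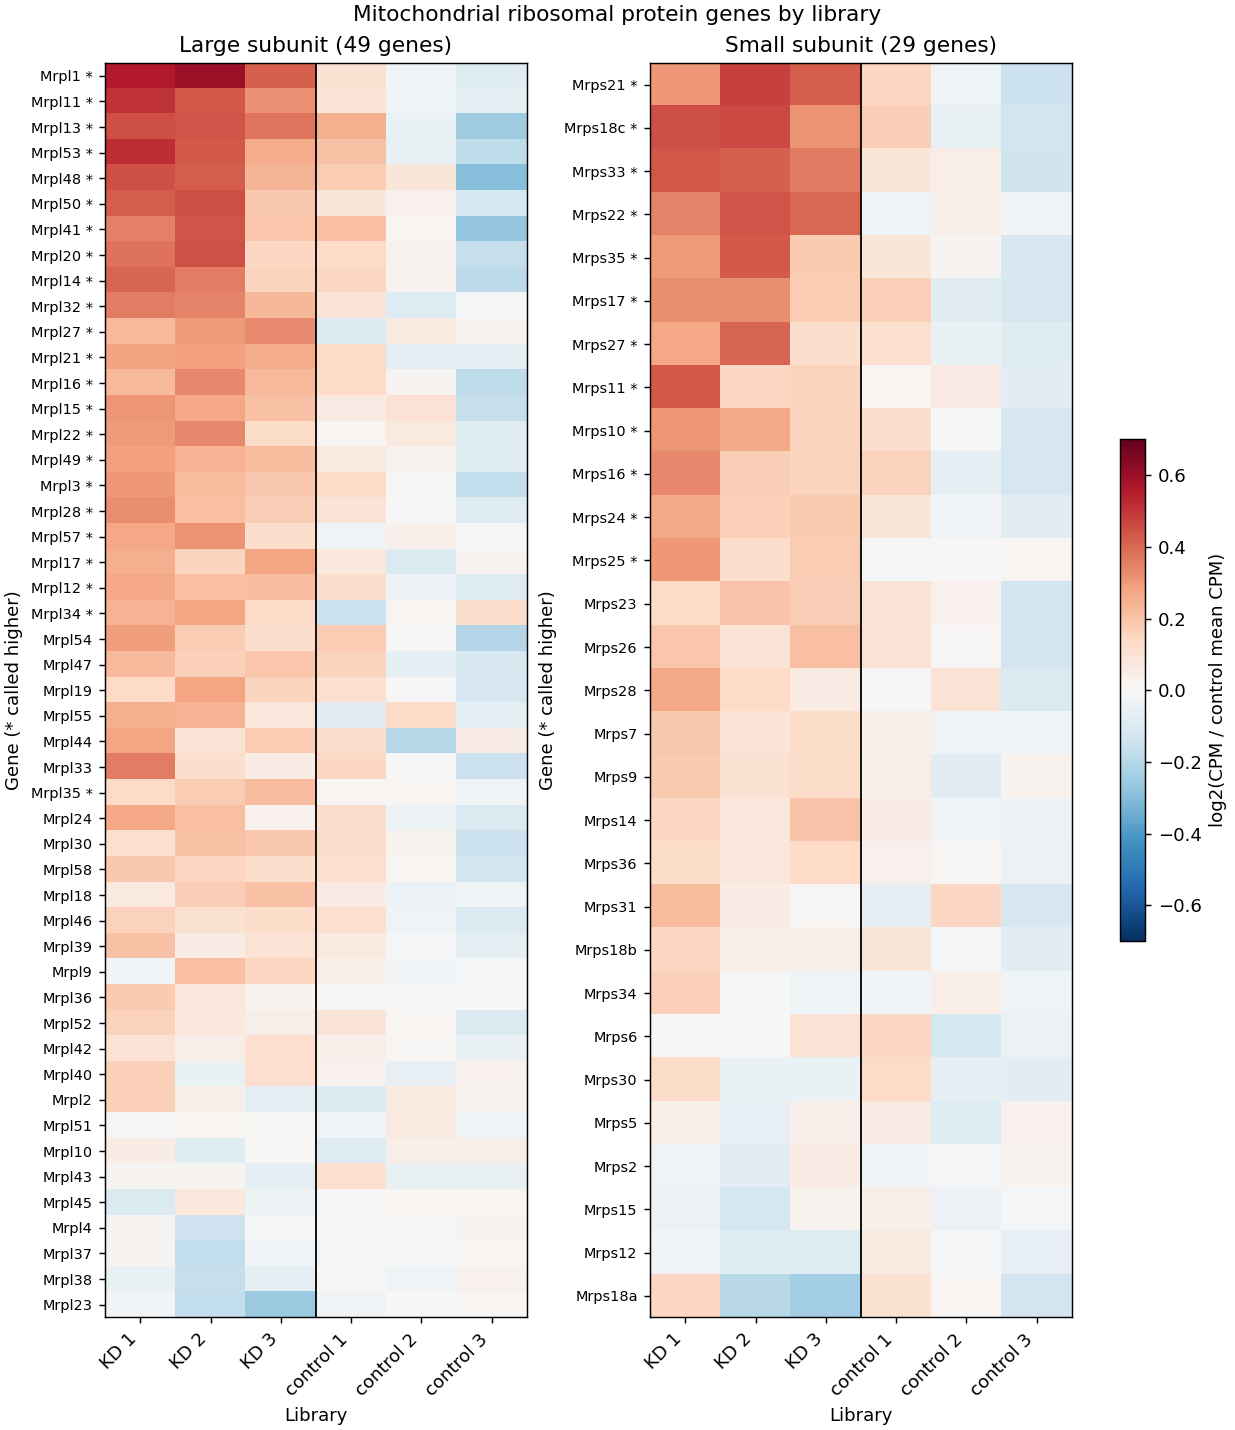
Level of each mitochondrial ribosomal protein gene in each library, as log2 of its CPM over the mean CPM of the controls (colour), with Fat4 knockdown (KD) columns left of the control columns and called genes marked by an asterisk. Rows are ordered by fold change; most upper rows are red in all 3 knockdown libraries, and control library 1 is the highest control for 55 of the 78 genes.

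Among large subunit genes the largest fold change was that of Mrpl1, the counterpart of the bacterial protein of the L1 stalk, beside the site where spent tRNA leaves. Mrpl1 (ENSMUSG00000029486, chr5:96357352-96414586, GRCm39) had 53.5, 55.4 and 48.7 CPM in knockdown libraries, against 39.2, 35.8 and 34.3 CPM in control libraries. Each knockdown library was above each control library, and the log2 fold change was 0.53 ± 0.07 (SE; edgeR adjusted p = 0.000352). Mrpl11 (chr19:5012175-5017027) encodes the protein at the base of the stalk that receives translation factors. It had 193, 184 and 170 CPM in knockdown libraries, against 145, 133 and 130 CPM in control libraries, again without overlap. Its log2 fold change was 0.42 ± 0.07 (SE; edgeR adjusted p = 0.000699). Both genes stayed called without any 1 library, and both had whole-number counts in all 6 libraries.

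Mrpl13 (chr15:55397490-55421144), also a counterpart of a bacterial protein, had 216, 214 and 205 CPM in knockdown libraries, against 188, 153 and 133 CPM in control libraries. The controls were widely spread but below every knockdown library, and the log2 fold change was 0.42 ± 0.10 (SE; edgeR adjusted p = 0.0124). The call was lost without knockdown library 1 or control library 2, where the adjusted p reached 0.0563. Mrpl53 (chr6:83086021-83086920), a protein with no bacterial counterpart, had 246, 232 and 206 CPM in knockdown libraries, against 198, 166 and 152 CPM in control libraries. Knockdown library 3 was only just above control library 1, and the log2 fold change was 0.41 ± 0.09 (SE; edgeR adjusted p = 0.0089). Exons of Mrpl13 overlap Mtbp and those of Mrpl53 overlap Ccdc142os on the opposite strand, and reads of such pairs cannot be separated without a stated strand setting.

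Mrpl48 (chr7:100194958-100257508), a protein of the central protuberance in the mammalian mitochondrial ribosome, had 31.5, 30.9 and 27.1 CPM in knockdown libraries, against 26.0, 24.4 and 18.7 CPM in control libraries. Its log2 fold change was 0.38 ± 0.11 (SE; edgeR adjusted p = 0.0254), and the gene was no longer called without knockdown library 1 or 2 or control library 2 or 3. A pseudogene, Mrpl48-ps, had 21.5 to 25.5 counts in knockdown and 14 to 20.5 in control libraries, so reads may be split between them. Exons of Mrpl48 also overlap Rab6a, a coding gene on the opposite strand. Mrpl50 (chr4:49512596-49521093), specific to mitochondria, had 105, 107 and 89.3 CPM in knockdown libraries, against 82.9, 80.1 and 71.9 CPM in control libraries. The groups did not overlap, and the log2 fold change of Mrpl50 was 0.36 ± 0.08 (SE; edgeR adjusted p = 0.00538), a call kept without any 1 library.

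The other 17 called genes of the large subunit rose by 0.34 or less on the log2 scale. Log2 fold changes were 0.34 for Mrpl41, 0.33 for Mrpl20, 0.31 for Mrpl14 and Mrpl32, 0.29 for Mrpl27, and 0.27 for Mrpl16 and Mrpl21. They were 0.26 for Mrpl15 and Mrpl22, 0.25 for Mrpl49, and 0.24 for Mrpl3, Mrpl28 and Mrpl57. The smallest were 0.23 for Mrpl12 and Mrpl17, 0.22 for Mrpl34 and 0.18 for Mrpl35. Mrpl32 is the member whose maturation depends on the m-AAA protease of the inner membrane, and Mrpl32 and Mrpl27 stayed called without any 1 library. For Mrpl41 the groups overlapped, at 47.3, 50.2 and 42.3 CPM in knockdown libraries against 42.8, 37.4 and 30.7 CPM in control libraries.

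The stalk and the core of the large subunit were unevenly called. Mrpl12, the stalk protein that contacts translation factors and also binds the mitochondrial RNA polymerase, had 271, 260 and 261 CPM in knockdown libraries, against 245, 219 and 211 CPM in control libraries (edgeR adjusted p = 0.0174). With 1 library left out, 4 of the 6 fits no longer called it. Mrpl10, which anchors Mrpl12 to the ribosome, had 61.6, 56.1 and 59.8 CPM in knockdown libraries, against 55.7, 61.1 and 61.2 CPM in control libraries. The groups of Mrpl10 overlapped throughout, and its log2 fold change was -0.00 ± 0.07 (SE; edgeR adjusted p = 0.97). Mrpl3, a counterpart of a bacterial core protein, had 143, 135 and 132 CPM in knockdown libraries, against 128, 116 and 103 CPM in control libraries, and was called in only 1 of the 6 fits without 1 library. Mrpl2, another core protein near the catalytic centre, had 176, 161 and 150 CPM in knockdown libraries, against 147, 164 and 160 CPM in control libraries, and was not called (edgeR adjusted p = 0.695).

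Other landmark genes of the large subunit were not called. Mrpl23, whose bacterial counterpart lines the tunnel exit, had 22, 19.8 and 18.6 CPM in knockdown libraries, against 21.9, 22.3 and 22.5 CPM in control libraries. Its log2 fold change of -0.14 ± 0.09 (SE; edgeR adjusted p = 0.279) was the lowest of all 78 genes. The pseudogene Mrpl23-ps1 had 281.5, 222.5 and 243 counts in knockdown libraries, against 264.5, 269 and 300.5 in control libraries, about as many as Mrpl23, so the split of reads between them is uncertain. Mrpl45, which ties the ribosome to the inner membrane, had 110, 124 and 115 CPM in knockdown libraries, against 118, 119 and 119 CPM in control libraries (log2 fold change -0.03, edgeR adjusted p = 0.808). Mrpl38 of the central protuberance had 145, 134 and 143 CPM in knockdown libraries, against 151, 147 and 153 CPM in control libraries, without overlap but uncalled (edgeR adjusted p = 0.271). Mrpl44, which has an RNase III fold, had 32.8, 29.0 and 30.7 CPM in knockdown libraries, against 29.5, 23.6 and 28.1 CPM in control libraries (edgeR adjusted p = 0.157). Mrpl58, a peptidyl-tRNA hydrolase built into the ribosome, had 63.6, 61.9 and 60.8 CPM in knockdown libraries, against 60.2, 56.3 and 50.9 CPM in control libraries. Its groups did not overlap, but it was not called (edgeR adjusted p = 0.129).

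In the small subunit, 4 genes stood ahead of the rest with log2 fold changes of 0.40 or 0.41. Mrps21 (chr3:95769946-95778831), a counterpart of a bacterial protein, had 126, 142 and 137 CPM in knockdown libraries, against 113, 100 and 92.0 CPM in control libraries (0.41 ± 0.07, SE; edgeR adjusted p = 0.00213). Mrps18c (chr5:100946493-100952337) had 186, 187 and 169 CPM in knockdown libraries, against 153, 131 and 124 CPM in control libraries (0.41 ± 0.07, SE; edgeR adjusted p = 0.00229). The knockdown libraries stood above the control libraries without overlap in both genes. Exons of both overlap non-coding or unconfirmed transcripts, on the opposite strand for Mrps21 and on the same strand for Mrps18c. Mrps33 (chr6:39778738-39787922), specific to mitochondria, had 60.8, 60.0 and 57.7 CPM in knockdown libraries, against 47.6, 46.4 and 40.7 CPM in control libraries (0.41 ± 0.07, SE; edgeR adjusted p = 0.00144). Mrps22 (chr9:98470783-98483713), also specific to mitochondria and a human disease gene of mitochondrial translation, had 39.7, 42.3 and 41.2 CPM in knockdown libraries, against 30.6, 32.1 and 30.8 CPM in control libraries. Both groups of Mrps22 were tight, with means of 41.1 ± 1.31 and 31.2 ± 0.854 CPM in knockdown and control (SD, n = 3 each; log2 fold change 0.40 ± 0.07, SE; edgeR adjusted p = 0.00162). All 4 genes stayed called without any 1 library.

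Mrps35 (chr6:146944262-146975489), specific to mitochondria, had 116, 127 and 107 CPM in knockdown libraries, against 99.9, 95.5 and 87.1 CPM in control libraries, with a log2 fold change of 0.31 ± 0.07 (SE; edgeR adjusted p = 0.00903). The call was lost without knockdown library 2. Mrps17 (chr5:129792561-129799620), a counterpart of a bacterial protein, had 228, 228 and 206 CPM in knockdown libraries, against 204, 173 and 168 CPM in control libraries, with a log2 fold change of 0.28 ± 0.07 (SE; edgeR adjusted p = 0.0141). Knockdown library 3 and control library 1 almost met, and the call was kept only in the fits that left out 1 of these. The other called genes had log2 fold changes of 0.27 for Mrps27, 0.25 for Mrps11, 0.24 for Mrps10, 0.23 for Mrps16, and 0.21 for Mrps24 and Mrps25. Exons of Mrps11 overlap those of Mrpl46, another gene of the 78, and those of Mrps24 overlap the coding gene Urgcp on the same strand. Of the 35 called genes of both subunits, 16 had exons that overlap another gene. Counts were not whole in at least 1 library for 23 of the 35. Mrps16, a human disease gene in which the groups overlapped, had 222, 198 and 196 CPM in knockdown libraries, against 197, 168 and 162 CPM in control libraries (edgeR adjusted p = 0.0459), and was called in 1 of the 6 fits without 1 library.

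The 3 Mrps18 paralogs, which sit at different places in the ribosome, gave different values. Mrps18c rose as given above. Mrps18b had 56.3, 52.6 and 52.4 CPM in knockdown libraries, against 54.0, 50.7 and 48.1 CPM in control libraries (log2 fold change 0.08, edgeR adjusted p = 0.446). Mrps18a, of the large subunit, had 39.1, 30.8 and 29.9 CPM in knockdown libraries, against 38.0, 35.7 and 32.2 CPM in control libraries (log2 fold change -0.08, edgeR adjusted p = 0.628). Groups of both overlapped, and the difference between paralogs was not tested. Mrps30, also of the large subunit, was not called, at 85.5, 75.7 and 75.8 CPM in knockdown libraries against 86.2, 74.5 and 74.0 CPM in control libraries (edgeR adjusted p = 0.911). Mrps12, whose bacterial counterpart governs decoding accuracy, had 41.6, 39.8 and 39.8 CPM in knockdown libraries, against 44.1, 42.0 and 40.6 CPM in control libraries (edgeR adjusted p = 0.584). Mrps7, a protein of the head of the subunit, had 132, 124 and 127 CPM in knockdown libraries, against 120, 114 and 114 CPM in control libraries, without overlap but uncalled (edgeR adjusted p = 0.126). Mrps36 had 36.9, 35.7 and 37.2 CPM in knockdown libraries, against 34.5, 34.0 and 32.9 CPM in control libraries, and was not called (edgeR adjusted p = 0.269). Its counts were fractional in all 6 libraries, and pseudogenes Mrps36-ps1 and Mrps36-ps2 held counts as well.

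Of the 43 genes that were not called, 32 had a log2 fold change above 0 and 11 below, and the lowest was that of Mrpl23. Their groups did not overlap, with knockdown higher, for 11 of the 43. The share over all genes tested was 17.4%, but that share includes called genes and is no like comparison. In expression the 78 genes ran from Mrps31, with 17.2 ± 1.43 CPM in knockdown and 16.1 ± 1.57 CPM in control cells, to Mrpl12, with 264 ± 6.34 CPM in knockdown and 225 ± 17.6 CPM in control cells (SD, n = 3 each). Per kilobase of exon, Mrpl53 was highest, at 289 CPM per kb in knockdown and 218 CPM per kb in control cells. Mrpl48 was lowest, at 3.66 CPM per kb in knockdown and 2.83 CPM per kb in control cells. Its listed exon length of 8152 bases is the union of all its transcripts, as for all 78 genes, which lowers values per kb.

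By origin, with genes placed by position in the ribosome (51 large and 26 small), the large subunit had 17 of 30 genes with a bacterial counterpart called higher (56.7%, median log2 fold change 0.23), and 6 of 21 mitochondria-specific ones (28.6%, median 0.13). In the small subunit the order was the other way, with 7 of 16 (43.8%, median 0.15) and 5 of 10 (50%, median 0.19). Neither difference was tested. By promoter, an ETS core stood in 11 of 32 called genes with a promoter (34.4%) and in 7 of 37 uncalled ones (18.9%). An NRF1 core stood in 5 of 32 (15.6%) and 5 of 37 (13.5%), a YY1 core in 2 of 32 (6.25%) and 2 of 37 (5.41%), and an E-box in 2 of 32 (6.25%) and 3 of 37 (8.11%). These shares describe letters in a window and were not tested.

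GC content and length moved with fold change in these libraries. Over 12787 tested genes with a known GC content, Spearman's rho of log2 fold change was -0.25 with exon length and -0.23 with GC content; over the 78 members it was -0.01 and -0.31. These are correlations across genes, which share libraries and are not replicates. Large subunit genes had a median listed length of 2533 bases and small subunit genes 2172, against 4036.5 bases over all genes tested; median GC content was 49.8% and 49.2%, against 49.4%. With fitted GC and length trends removed, 16 large subunit genes (32.7%) and 10 small subunit genes (34.5%) were called higher, against 6.62% of all genes. None was called lower, against 6.11% of all genes. At an unadjusted edgeR p under 0.05, 0 of the 78 were lower, against 1718 of all 12787 genes. The median log2 fold change became 0.13 in the large and 0.12 in the small subunit. All 26 of these calls were among the 35 made without the correction.

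Single genes differed in how far the correction moved them. On the log2 scale Mrpl1 had 0.44 with the correction, against 0.53 without it, while Mrpl11 (0.41) and Mrps22 (0.40) moved by 0.01 or less. Values were much smaller for Mrps18c at 0.19, Mrpl50 at 0.20, Mrps33 at 0.24 and Mrps21 at 0.26, and all 4 stayed called. The 9 calls lost were those of Mrpl16, Mrpl22, Mrpl27, Mrpl34, Mrpl35, Mrpl41, Mrpl57, Mrps16 and Mrps27. Mrpl22 had the smallest corrected value of these, 0.09 with an edgeR adjusted p of 0.365.

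**Figure D3:**
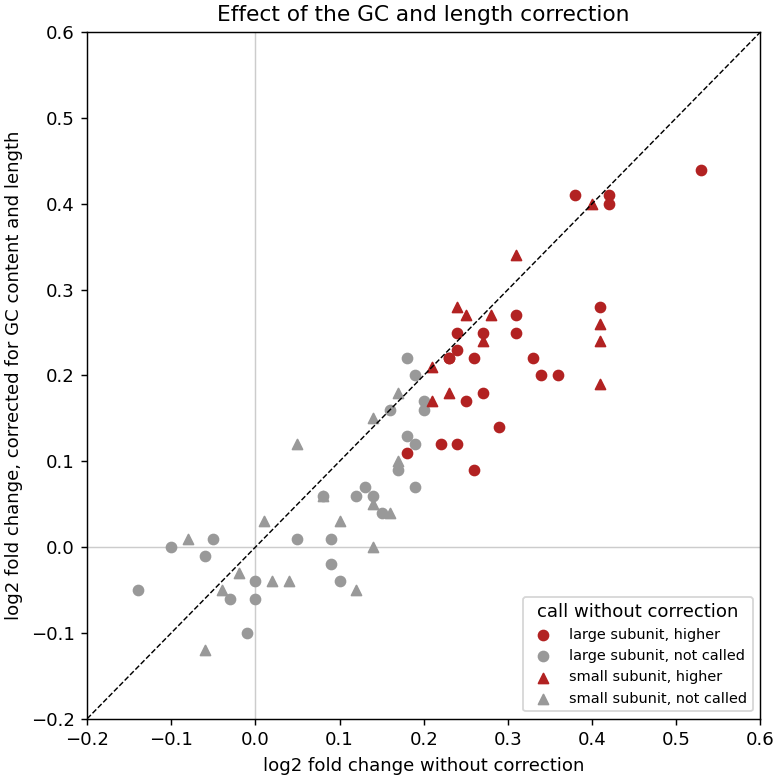
Log2 fold change, Fat4 knockdown over control, after the GC and length correction (y axis) against that without it (x axis) for the 78 genes, circles for the large and triangles for the small subunit. Red marks the 35 genes called without the correction, of which 26 stayed called; most red points lie on or below the dashed line of equal values, from 0.09 for Mrpl22 to 0.44 for Mrpl1.

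Of 5 further mitochondrial ribosomal proteins with other symbols, 2 were called higher (40%), beside 8.94% of all genes tested. The number was 3 with limma-voom and without control library 1. It was 1 with DESeq2, with the replicate block and without control library 3. It was 0 with library size as the only scaling and without knockdown library 1 or 2 or control library 2. Over all genes, limma-voom called 8.8% higher and DESeq2 6.81%. In either direction, edgeR called 3077 of 13619 genes without control library 1 and 1226 of 13589 without control library 3. It called 2001 of 13372 with the replicate block and 2593 of 13372 with library size only. Without knockdown libraries 1 and 2 it called 1216 of 13625 and 1165 of 13666, and 1029 of 13608 without control library 2. Aurkaip1 had 36.3, 33.9 and 29.6 CPM in knockdown libraries, against 27.1, 27.6 and 28.0 CPM in control libraries (log2 fold change 0.27, edgeR adjusted p = 0.0347). Ptcd3, a pentatricopeptide repeat protein of the small subunit, had 77.7, 79.6 and 74.8 CPM in knockdown libraries, against 71.1, 63.4 and 67.2 CPM in control libraries (log2 fold change 0.20, edgeR adjusted p = 0.0374). Both sets of knockdown libraries lay above their controls. Chchd1 had 283, 275 and 260 CPM in knockdown libraries, against 222, 179 and 133 CPM in control libraries, and was not called (log2 fold change 0.62 ± 0.18, SE; edgeR adjusted p = 0.0714). Dap3, the GTP-binding protein of the small subunit, was not called at 150, 156 and 142 CPM in knockdown libraries against 138, 140 and 137 CPM in control libraries (edgeR adjusted p = 0.227). Gadd45gip1, of the large subunit, was not called either, at 99.6, 94.8 and 95.3 CPM in knockdown libraries against 102, 97.4 and 92.6 CPM in control libraries (edgeR adjusted p = 0.933).

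Of 29 genes that assemble the mitochondrial ribosome or modify its rRNA, 1 was called higher (3.45%) and 2 lower (6.9%), beside 8.94% and 8.44% of all genes tested, with a median log2 fold change of 0.01. With the GC and length correction, and with the replicate block, 3 were called higher (10.3%), and without control library 1 the number was 6 (20.7%). Over all genes, 6.62% were called higher with the correction. In either direction, 2001 of 13372 were called with the replicate block and 3077 of 13619 without control library 1. The number of these assembly and rRNA genes called higher was 0 without knockdown library 1 or 2 or control library 2 or 3. The gene called higher was Fastkd2, an RNA-binding protein of the large subunit rRNA (0.36, edgeR adjusted p = 0.0133). Rcc1l, an assembly factor, had 57.1, 52.4 and 53.6 CPM in knockdown libraries, against 62.8, 67.9 and 71.7 CPM in control libraries (log2 fold change -0.31, edgeR adjusted p = 0.00551). Spg7, a subunit of the m-AAA protease that matures the Mrpl32 protein, had 45.9, 41.9 and 43.9 CPM in knockdown libraries, against 53.6, 56.2 and 54.4 CPM in control libraries (log2 fold change -0.32, edgeR adjusted p = 0.0041). Both fell without overlap of the groups.

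None of 16 translation factors and mRNA-binding genes was called by edgeR as reported here, or by DESeq2 or limma-voom, where 17.4% of all genes were called by edgeR. In edgeR 3 had an unadjusted p under 0.05, all higher, beside 2047 of all 13372 genes tested that were higher at this threshold. The median log2 fold change was 0.00. With the replicate block, with no filter on low counts and without knockdown library 3, edgeR called 1 of the 16 higher (6.25%), and without control library 1 it called 2 (12.5%). In the same order, those fits called 2001 of 13372, 2413 of 28752, 1789 of 13615 and 3077 of 13619 genes in either direction. Of 22 genes of mitochondrial aminoacyl-tRNA synthesis, edgeR, DESeq2 and limma-voom each called 1 lower (4.55%) and 0 higher. Over all genes tested, edgeR called 8.44% lower, DESeq2 4.67% and limma-voom 7.88%. Of the 22, 1 was above 0 at an unadjusted edgeR p under 0.05, and the median log2 fold change was -0.04. The one lower was Lars2, the leucyl-tRNA synthetase, with 83.4, 69.8 and 83.4 CPM in knockdown libraries against 111, 131 and 132 CPM in control libraries (log2 fold change -0.66 ± 0.08, SE; edgeR adjusted p = 0.00016). Its counts were fractional in all 6 libraries. Of 15 tested genes of mitochondrial transcription and its regulators, 1 (6.67%) was called higher and 0 lower, beside 8.94% and 8.44% of all genes tested. It was Tefm, the elongation factor, with 27.1, 27.0 and 22.4 CPM in knockdown libraries against 20.8, 19.0 and 13.1 CPM in control libraries (log2 fold change 0.55, edgeR adjusted p = 0.0204). Tfam, which packages mitochondrial DNA, had 0.22 (edgeR adjusted p = 0.0694), Nrf1 -0.11 (0.313), Gabpa -0.06 (0.655) and Gabpb1 0.19 (0.0588), and none of these was called. Ppargc1a was too low to test.

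The products of this ribosome are the 13 mitochondrially encoded proteins, and their messages had a median log2 fold change of 0.03. Only mt-Co1, of cytochrome c oxidase, was called, and lower (7.69% of the 13, beside 8.44% of all genes tested). It had 1620, 1800 and 1640 CPM in knockdown libraries against 1980, 1950 and 1950 CPM in control libraries (log2 fold change -0.21, edgeR adjusted p = 0.0183). After the GC and length correction 9 of the 13 were called lower (69.2%), against 6.11% of all genes, with a median of -0.28. Before it 9 of the 13 log2 fold changes were above 0, and after it all 13 were below 0. Median GC content of these genes was 37.1% and median listed length 784 bases, against 49.4% and 4036.5 bases over all genes tested. Whether the fitted trends hold for genes so far from those medians was not tested. Among 89 tested genes with symbols of nuclear respiratory complex genes, assembly factors included, 35 (39.3%) were called higher and 0 lower, with a median of 0.20. The largest fold changes among the called genes were those of Uqcrh (0.57), Ndufb6 (0.54), Ndufb1 (0.53) and Atp5mg (0.52). Of 84 tested cytosolic ribosomal protein genes, 54 (64.3%) were called higher and 0 lower, with a median of 0.26. Among the called genes the largest fold changes were those of Rps24 (0.56), Rpl17 (0.54), Rps27l (0.53) and Rpl39 (0.50). At an unadjusted edgeR p under 0.05 the lower genes numbered 2 and 0 in these lists; DESeq2 called 38 and 56 higher and none lower. With the correction the shares called higher became 22.5% and 46.4%. The order of the mitochondrial ribosomal and respiratory lists by share called changed with the setting, at 44.9% and 39.3% as reported here and 38.5% and 42.7% with DESeq2. No difference between lists was tested.

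**Figure D4:**
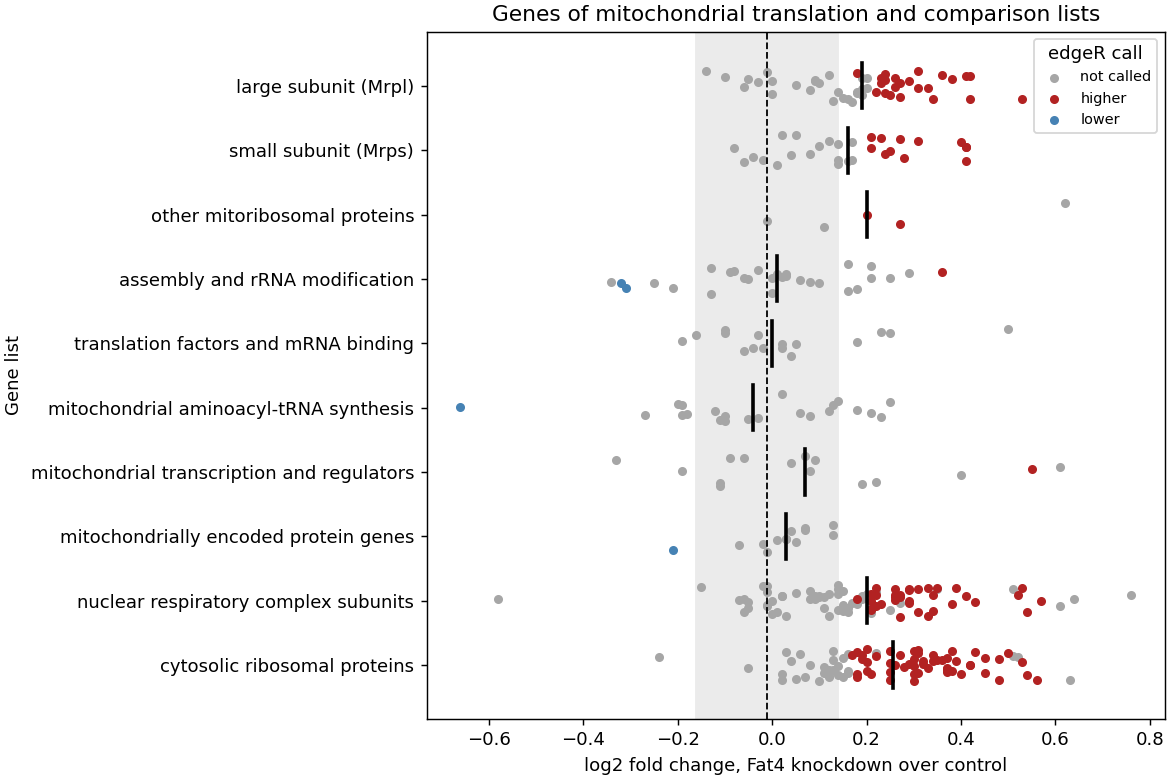
Log2 fold change, Fat4 knockdown over control (x axis), of each tested gene in 10 lists (rows), coloured by its edgeR call, with the list's median as a short black bar. The dashed line is the median of all genes tested (-0.01) and the grey band their interquartile range (-0.16 to 0.14); the medians of both subunits lie above the band, those of assembly, translation factor and tRNA synthetase genes inside it.

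**Figure D5:**
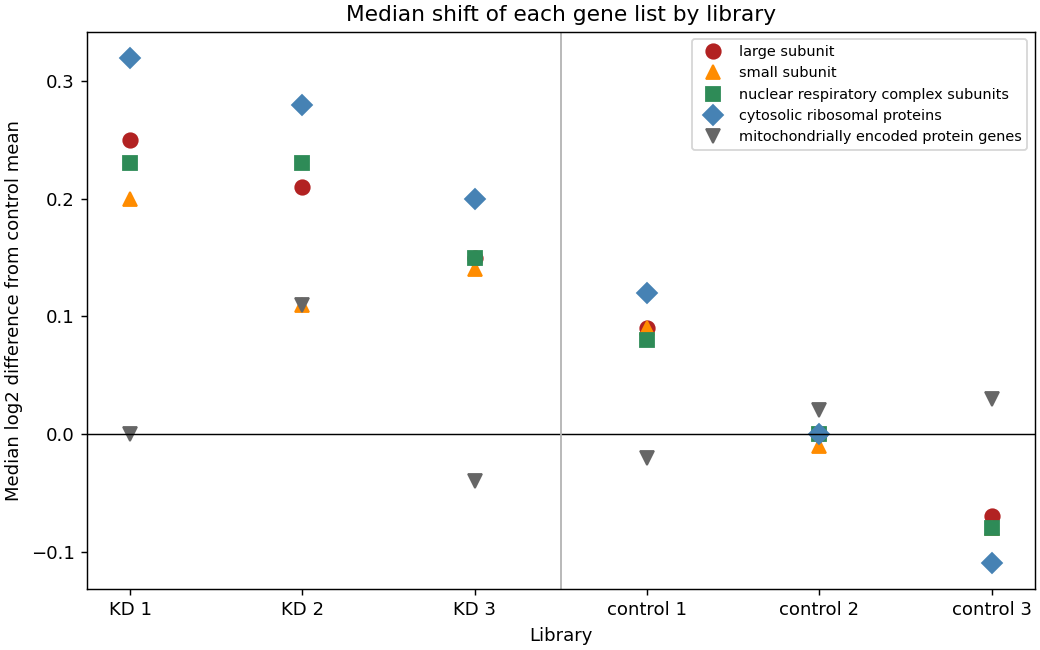
Median log2 difference from the control mean (y axis) over each gene list in each library (x axis), Fat4 knockdown (KD) libraries left of control libraries. The large subunit stood at 0.25, 0.21 and 0.15 in knockdown and 0.09, 0.00 and -0.07 in control libraries, and respiratory complex and cytosolic ribosomal protein lists were ordered alike, while the mitochondrially encoded list was not.

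The lists also moved together library by library. Cytosolic ribosomal protein genes had medians of 0.32, 0.28 and 0.20 in knockdown libraries 1, 2 and 3, against 0.12, 0.00 and -0.11 in control libraries 1, 2 and 3. Nuclear respiratory complex genes had 0.23, 0.23 and 0.15 in knockdown libraries, against 0.08, 0.00 and -0.08 in control libraries. Mitochondrially encoded genes had 0.00, 0.11 and -0.04 in knockdown libraries, against -0.02, 0.02 and 0.03 in control libraries, where the groups overlapped. The part of GC content, length or single libraries in the common shift was not tested beyond the values given.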

How the data were processed

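Messenger RNA was reverse transcribed and tagmented into libraries, per the labels' protocols. The submitters' processing notes list GRCm39 and, among other tools, STAR 2.7.11 and fastp 0.24.0. Not given in the sources used here: how reads were counted, on which strand and with which annotation. As deposited, the table holds estimated counts per gene, 29% of whose nonzero values are not whole (tolerance 1e-06), and deposited CPM values equal to count over library total. Its 92 spike-in rows were left out of 78409.

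Counts were rounded, filtered with filterByExpr and scaled by TMM, and all genes were tested with edgeR 4.0.16 (glmQLFit with robust moderation, glmQLFTest; R 4.3.3), Benjamini-Hochberg adjusted p under 0.05, no block. CPM used TMM-scaled library sizes. The biological coefficient of variation was 6.31%. The fit was tested on simulated data. GC content came from GENCODE M21 transcripts (95.63% of tested genes; all 78 members) and its trend was fitted with mgcv 1.9.3. Alternatives were other scalings, DESeq2 1.42.0, limma-voom 3.58.1, other filters, leaving out each library, a replicate block, and counts rounded down. Whole-number genes alone and no robust moderation were chosen after seeing the data. The members and lists were chosen with earlier results of these data known. Named genes are Fat4, all called members, fixed role landmarks, members of extreme level, and up to 4 called genes of each other list.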

Additional observations from a re-analysis of the deposited data

How the results depend on the processing

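Neither subunit had a gene called lower under any setting tried, and no called gene changed direction. Genes that were not called did change sign: 11 of the 78 log2 fold changes were below 0 as reported, 17 with library size as the only scaling and 15 with the GC and length correction, Mrps36 among the last. The count of 23 large subunit genes called higher lay between 16 and 23 under the settings that keep all libraries and do not demand whole-number counts, and that of 12 small subunit genes between 9 and 12, except 6 with library size as the only scaling. Library size alone shifted the median of all genes by -0.057 and left 32.9% of all calls higher, against 51.4%. It gave medians of 0.14 for the large and 0.10 for the small subunit, against 0.19 and 0.16. The GC and length correction gave 0.13 for the large subunit. DESeq2 called 1535 of all genes, against 2324. Restriction to genes with whole-number counts called 881 of the 6219 genes tested there, and 11 large and 4 small subunit genes. Only 29 of the 78 members were in that smaller set, and 12 of the 35 calls as reported fell among them. Without 1 library the ranges were 1029 to 3077 for all genes, 7 to 31 and 5 to 14 for large and small subunit genes called higher, and 0.16 to 0.25 and 0.12 to 0.19 for their medians. Of the 35 calls, 10 were kept in all 6 of those fits and 9 in every setting planned. The cause of these moves was not tested.

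Replicate numbers were not found to pair libraries, since the correlations of same-numbered libraries' deviations were -0.189, -0.117 and 0.0622. With the replicate block, 22 large and 9 small subunit genes and 2001 of all genes were called.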

Other observations

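Some mitochondrial ribosomal protein genes share a divergent start region with another gene. Only starts placed head to head, with little or no overlap, were counted. Such a coding gene on the opposite strand began within 1000 bases for 19 of the 78 members (24.4%). The share was 1320 of 10946 tested coding genes (12.1%). Pairs whose starts overlap further, such as Mrps11 and Mrpl46, were left out. Of the 18 partners that were tested, edgeR called 0 higher and 2 lower, beside 8.94% and 8.44% of all genes. The 2 were Ncapd2 beside Mrpl51 and Apba3 beside Mrpl54. The median log2 fold change of the 18 partners was 0.06. Of the called members, 7 had a tested partner. Mrpl32 had a log2 fold change of 0.31 and its partner Psma2, a proteasome subunit gene, 0.10. Mrps18c had 0.41 and its partner Helq, a helicase gene, -0.04. Mrpl49 had 0.25 and its partner Fau, a cytosolic ribosomal protein gene, 0.23.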
